A study of Danio rerio with 9 samples.

Results

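Heads of germ-free zebrafish embryos that had received gut metabolites (ZM) were compared with heads of untreated germ-free embryos (GF), gene by gene, within 3 pairs of samples that carry the same replicate number. Of the 32520 Ensembl genes in the deposited table, the 15451 with a mean of at least 1 FPKM over these 6 samples were tested, and 17069 fell below that limit, 4316 of them at 0 in all 6. FPKM is the number of sequenced fragments from a gene, scaled by transcript length and by all mapped fragments of the sample. The GF and ZM embryos were of the Tübingen strain and had both been sterilized during epiboly with gentamicin and a hypochlorite wash and then kept in sterile medium, so the 2 groups share that treatment. ZM embryos received, straight after sterilization, a single dose of filter-sterilized supernatant from the intestines of pooled adult male zebrafish. The dose is therefore a mixture of undefined composition, given once and before the head had formed. RNA was taken at 2 dpf (long-pec stage) from pools of 5 heads cut at the base of the hindbrain, with 3 samples in each group. The study calls them biological replicates, but neither it nor the labels say whether they came from separate clutches. The p-values therefore measure the spread of the ZM minus GF differences between the 3 pairs of pools, drawn towards a spread shared over genes. That may not be the spread between clutches. The conventionally raised samples of the series were not used.

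Microbial and dietary small molecules can reach an embryo through its skin and, once the mouth opens, through the gut. Some are ligands of the aryl hydrocarbon receptor, a transcription factor whose best known target encodes the cytochrome P450 enzyme CYP1A, and others act on nuclear receptors. At this stage the zebrafish head holds dividing neural progenitors beside young neurons that are starting to make synapses, a lens that is filling with crystallins, and neural crest derivatives that form pigment cells and cartilage. In a pool of whole heads, fewer cells of a type and less RNA per cell cannot be told apart.

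The replicate 3 samples stood apart from the others before any comparison of the groups. The first principal component, with 48.5% of the variance over the genes tested, placed GF 3 at 35.1 and ZM 3 at 32.1, against values between -27.6 and -8.12 for the other 4 samples. The mean of GF 3 and ZM 3 minus that of the other 4 samples, on the log2(FPKM + 1) scale, had a median of -0.25 over neural progenitor genes, -0.24 over DNA replication genes and 0.22 over photoreceptor genes. Differences between ZM and GF correlated across the 15451 genes with r = 0.575 between pairs 1 and 2, 0.175 between pairs 1 and 3 and 0.206 between pairs 2 and 3, which is a description, since genes are not independent. Each result is therefore given pair by pair, and with replicate 3 left out where that matters. The marker genes of the head were present: summed over elavl3, elavl4, stmn1b and snap25a with copies under the same symbols, neurons reached 651 to 823 FPKM in GF and 539 to 688 in ZM, and gfap, fabp7a and sox2 together reached 997 to 1283 and 934 to 1364. Muscle markers, which can mark the amount of trunk or jaw tissue in a dissection, summed to 3375 to 6764 in GF and 4003 to 5024 in ZM. Markers of liver and yolk summed to 549.5 to 925 and 499 to 1196. Of the 2 macrophage markers looked up only csf1ra was matched, at no more than 1.54 FPKM, and it is also counted among pigment cell genes.

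**Figure D1:**
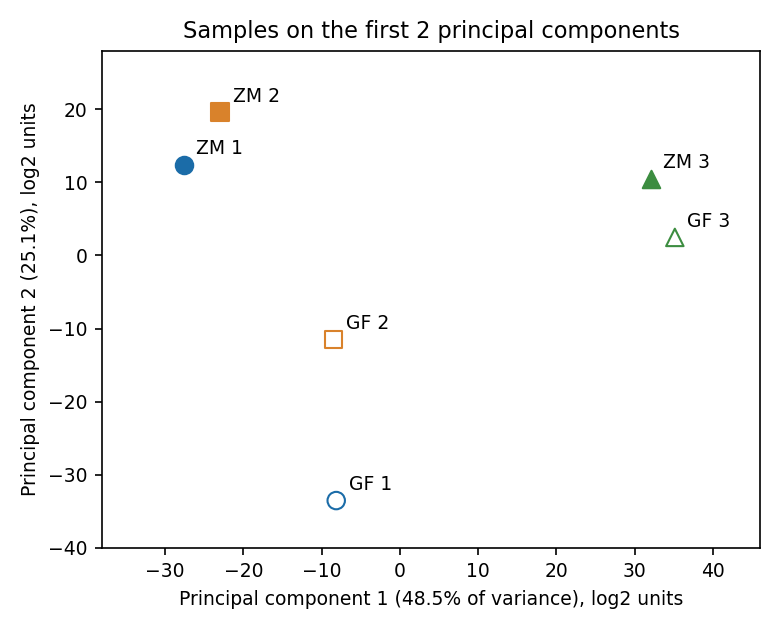
The 6 samples on the first 2 principal components of log2(FPKM + 1) over the 15451 genes tested, with GF as open and ZM as filled symbols and the shape and colour giving the replicate number. GF 3 and ZM 3 lie at 35.1 and 32.1 on the first component, and the other 4 samples between -27.6 and -8.12.

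In the comparison over all genes, limma with the replicate number as a block called 2 genes higher in ZM (0.0129% of those tested) and 0 lower (0%) at an adjusted p under 0.1, a threshold that the study also used for these groups. At an unadjusted p under 0.05 there were 1491 higher (9.65%) and 1168 lower (7.56%). A gene had a higher value in ZM in all 3 pairs in 22.7% of cases and a lower one in 19.5%, and the groups did not overlap for 10.2% (ZM above GF) and 6.25% (ZM below GF). The median log2 fold change over all genes was 0.0019. With replicate 3 left out, 923 genes were higher (5.97%) and 1353 lower (8.76%) at an adjusted p under 0.1. Leaving out replicate 1 gave 1 and 0 instead, and leaving out replicate 2 gave 0 and 0. Pair 3 had no part in the fit without it, and can be set beside those calls. ZM 3 was above GF 3 in 738 of the 923 higher genes (79.96%), against 62.6% of all genes tested, and below it in 742 of the 1353 lower genes (54.8%), against 37.3% of all genes. The median difference in pair 3 was 0.22 for the former and -0.03 for the latter, against 0.51 and -0.78 in pair 1. The values below are differences of log2(FPKM + 1), which understate the change of genes with low FPKM. Of the genes tested, 281 had a mean under 1 FPKM in GF and 240 in ZM, so these passed the limit only through the other group. No tested member of the DNA replication, lens, presynaptic or pigment lists was among them.

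CYP1A1 (ENSDARG00000098315), listed under the symbol of the human gene and known in zebrafish as cyp1a, encodes the cytochrome P450 enzyme that oxidizes aromatic compounds and is induced through the aryl hydrocarbon receptor. Its level was 5.21, 16.2 and 9.12 FPKM in GF 1, 2 and 3 and 38.5, 123.8 and 125.6 FPKM in ZM 1, 2 and 3. The lowest ZM sample was above the highest GF sample, and within pairs ZM was 7.39, 7.65 and 13.8 times GF. CYP1A1 rose by 3.06 on the log2 scale (standard error 0.19, limma adjusted p = 0.0436), from 10.2 ± 5.56 to 96.0 ± 49.8 FPKM (SD, n = 3 each), the largest log2 fold change of all genes tested. ZBTB18 (ENSDARG00000028228), a zinc finger repressor of transcription needed for the maturation of cortical neurons in the mouse, stood at 2.78, 2.60 and 1.86 FPKM in GF and at 15.4, 14.7 and 8.09 FPKM in ZM. Again no ZM sample overlapped the GF samples, and the ratios within pairs were 5.54, 5.67 and 4.36. ZBTB18 rose by 1.97 (standard error 0.14, limma adjusted p = 0.0502). Without replicate 3 the adjusted p from limma was 0.000376 for CYP1A1 and 0.00311 for ZBTB18. Neither was called without replicate 2 (adjusted p 0.217 and 0.489) or with no filter on low values (0.401 for both), and ZBTB18 was not called without replicate 1 (adjusted p 0.159), while the fold changes stayed between 2.76 and 3.25 and between 1.89 and 2.12 when a pair was left out. Without the block the adjusted p from limma was 0.376 for CYP1A1 and 0.337 for ZBTB18.

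**Figure D2:**
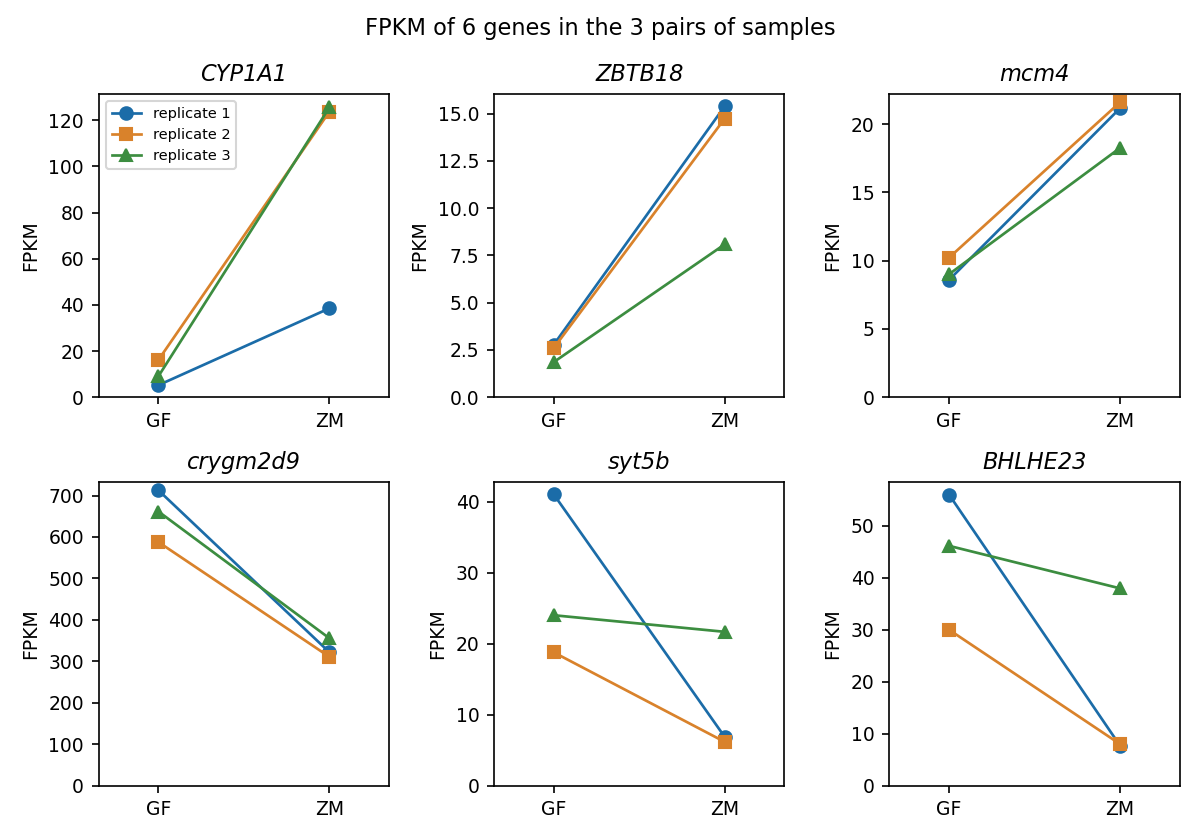
FPKM of 6 genes (linear axes from 0), with a line joining the GF and the ZM sample of each replicate. CYP1A1, ZBTB18 and mcm4 are higher and crygm2d9 is lower in ZM in every pair, while syt5b and BHLHE23 go from 24.0 to 21.7 and from 46.2 to 38.0 FPKM in replicate 3 and lie further below GF in replicates 1 and 2.

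The other genes tied to the aryl hydrocarbon receptor had smaller differences, and none passed the test over all 3 pairs. They were picked after the values of CYP1A1 had been seen. CYP1B1, a related P450 enzyme, had 1.3, 1.48 and 1.62 FPKM in GF and 2.67, 2.74 and 1.72 in ZM, a log2 fold change of 0.44. The fish-specific family members cyp1c1 and cyp1c2 had log2 fold changes of 0.44 and 0.36, and cyp1d1 -0.07. TIPARP, a feedback repressor of the receptor, listed as tiparp, had 0.36, and FOXQ1, a forkhead factor, had 0.67. CYP1B1, cyp1c2 and FOXQ1 were higher in all 3 pairs without overlap (10.2% of all genes lay higher without overlap). Without replicate 3, CYP1B1 (limma adjusted p 0.0557) and tiparp (0.0702) passed as higher, against 5.97% of all genes, but tiparp was lower in pair 3. Of the receptors, ahr2 had 7.01, 6.70 and 5.51 FPKM in GF and 4.99, 5.61 and 7.65 in ZM, and ahr1b had a log2 fold change of -0.15. NQO1, a quinone reductase, had -0.18. The 2 receptor repressor genes ahrra and ahrrb were below the limit, with at most 0.267 FPKM. The large difference in CYP1A1 thus had no counterpart of its size among these genes. Over the wider list of sensors of xenobiotics, retinoids, bile acids and fatty acids, which does not count CYP1A1, 44 genes were tested, with a median of 0.08. Of these, 14 were higher (31.8%) and 7 lower (15.9%) in all 3 pairs, against 22.7% and 19.5% of all genes. CYP26C1, a retinoic acid degrading enzyme, had 7.22, 7.40 and 7.30 FPKM in GF and 13.2, 10.5 and 9.06 in ZM, without overlap. PPARD, a fatty acid receptor, had 22.6, 18.6 and 19.1 FPKM in GF and 17.7, 12.996 and 15.8 in ZM.

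Behind the 2 called genes, a run of genes shared limma adjusted p-values of 0.184 to 0.193 and was not called. Those with the largest t among genes higher in all pairs were mcm4, hnrnpaba, srsf10b, si:ch211-114n24.6, proza, zgc:56304, mcm7, hnrnpa0b, RRM2 and bxdc2. Of these, mcm4, mcm7 and RRM2 act in DNA replication, and hnrnpaba, srsf10b and hnrnpa0b bind RNA. The study called mcm4, hnrnpaba, srsf10b, si:ch211-114n24.6, zgc:56304, hnrnpa0b and bxdc2 rescued, in part because they were higher in ZM than in GF in these samples. Their direction here is therefore no independent evidence, and the same holds for its other rescued genes named below. The gene proza, for protein Z of blood coagulation, had 2.19, 1.55 and 2.30 FPKM in GF and 4.73, 4.78 and 7.43 in ZM. On the lower side they were crygm2d9, crygm2d4, si:dkey-57a22.15, crygmxl2, plaat1, uox, DEF8, LGSN, and2, crygm2d7, tspan33b and CRYBA2, of which 5 are crystallins. LGSN encodes lengsin, a lens protein, and had 33.1, 28.6 and 32.0 FPKM in GF and 17.2, 11.8 and 19.2 in ZM. The phospholipase gene plaat1, whose family breaks down organelles in lens fibres of zebrafish, had 21.3, 17.0 and 17.9 FPKM in GF and 9.49, 7.74 and 10.6 in ZM. Both lens genes were thus without overlap between the groups. The urate oxidase gene uox had 1.31, 1.75 and 2.14 FPKM in GF and 0.242, 0.487 and 0.813 in ZM, and passed the limit only through GF.

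DNA replication genes were higher in ZM in all 3 pairs in 36 of 41 tested members, against 22.7% of all genes, and lower in 0. The list holds the origin recognition complex, the MCM helicase, the polymerases and their clamp and loader, and the enzymes of nucleotide supply. The median log2 fold change was 0.46, with 0.59, 0.48 and 0.22 in pairs 1, 2 and 3. None passed an adjusted p of 0.1 over all genes, and 32 passed as higher without replicate 3 (5.97% of all genes). Among the subunits of the MCM helicase, which unwinds DNA ahead of the fork, mcm4 (ENSDARG00000040041) had 8.59, 10.2 and 9.01 FPKM in GF and 21.2, 21.6 and 18.3 in ZM. Its ZM samples were all well above the GF samples, with ratios of 2.46, 2.11 and 2.03 and a log2 fold change of 1.05 (standard error 0.11, limma adjusted p = 0.184). The subunit mcm7 had 18.2, 16.1 and 14.3 FPKM in GF and 39.4, 48.5 and 25.8 in ZM, and the other 4 subunits had log2 fold changes between 0.57 and 0.63. ORC1, the largest subunit of the origin recognition complex, had 2.91, 2.79 and 2.77 FPKM in GF and 9.38, 7.03 and 3.53 in ZM, with much of its difference in pairs 1 and 2. PCNA, the sliding clamp, had 489.6, 428 and 433 FPKM in GF and 854, 690.5 and 525 in ZM. RRM2, the small subunit of ribonucleotide reductase at ENSDARG00000020711, had 194, 159.7 and 170.3 FPKM in GF and 293, 270.2 and 264 in ZM. The groups did not overlap for mcm4, mcm7, ORC1, PCNA or RRM2 at ENSDARG00000020711. A further entry of the list, rrm2 at ENSDARG00000078069, had 71.3, 62.6 and 67.7 FPKM in GF and 114, 104 and 71.0 in ZM, with overlap. The exception in direction was RFC1, the large subunit of the clamp loader, with a log2 fold change of -0.11. Mitosis genes were higher in all 3 pairs in 22 of 36 members and lower in 0, with a median of 0.23 and pair medians of 0.36, 0.24 and 0.17. CCNA2, the cyclin of S phase and mitotic entry, had 24.6, 22.1 and 18.1 FPKM in GF and 35.8, 30.5 and 24.7 in ZM, higher in each pair and without overlap. RACGAP1, a cytokinesis factor, had 19.8, 33.2 and 31.1 FPKM in GF and 30.0, 19.5 and 19.6 in ZM, and so did not follow the others.

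**Figure D3:**
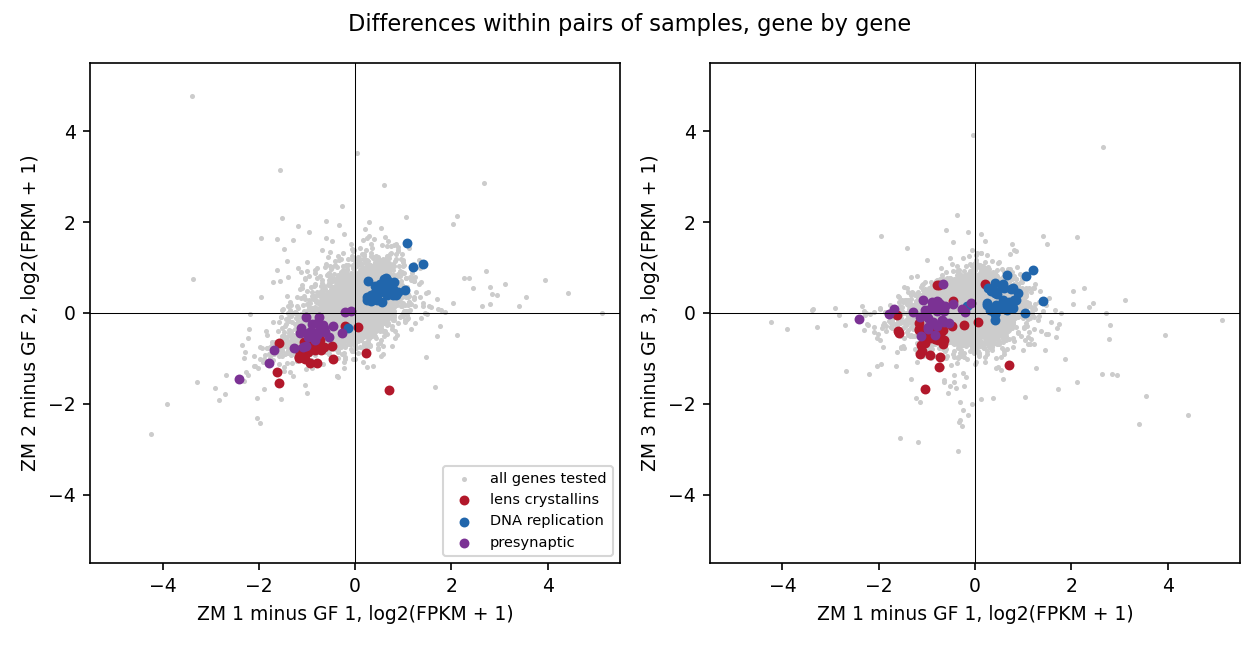
Differences within pairs (ZM minus GF, log2(FPKM + 1)), with pair 1 on the x axis and pair 2 (left) or pair 3 (right) on the y axis. Each grey point is a gene, and lens crystallins (38), DNA replication genes (41) and presynaptic genes (33) are coloured. The grey cloud is tilted on the left (r = 0.575) and much less so on the right (r = 0.175), where the presynaptic genes spread around 0 on the y axis.

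Genes that move proteins and RNA through the nuclear envelope were higher in all 3 pairs in 35 of 54 tested members, against 22.7% of all genes. In this list 1 member (XPO1, an exportin, at ENSDARG00000063229) was lower in all, against 19.5% of all genes. The median was 0.24, with 0.16, 0.23 and 0.44 in pairs 1 to 3, and 12 members passed as higher without replicate 3 (5.97% of all genes). Among importins, kpnb1, the importin beta carrier, had 4.82, 4.49 and 4.995 FPKM in GF and 9.15, 14.5 and 7.71 in ZM, and IPO9 had 3.18, 2.81 and 2.50 against 5.12, 5.63 and 4.48. Among nucleoporins, pom121, which anchors the pore in the membrane, had 0.777, 1.03 and 0.634 FPKM in GF and 1.84, 2.36 and 1.90 in ZM, and passed the limit only through ZM. The ZM samples of kpnb1 and IPO9 were all above the GF samples. The basket proteins tpra and tprb, which may share reads, had log2 fold changes of 0.65 and 0.58. Unlike the replication genes, this list had its largest pair median in pair 3. The hnRNP, SR and FET splicing factors had 27 of 45 members higher and 2 lower in all 3 pairs (22.7% and 19.5% of all genes). Their median was 0.20. The heterogeneous ribonucleoprotein hnrnpaba had 30.6, 38.8 and 32.0 FPKM in GF and 54.2, 79.9 and 57.0 in ZM. The splicing regulator srsf10b had 5.23, 6.50 and 6.17 against 10.5, 18.4 and 13.5, while its paralog srsf10a had 14.7, 9.47 and 10.3 against 7.56, 7.07 and 9.20. The paralogs therefore had log2 fold changes of opposite sign, 1.09 and -0.47, and reads may be divided between them. DEAD-box and DEAH-box RNA helicases had 27 of 47 members higher and 0 lower in all pairs, with a median of 0.18. Of these, ddx3xb went from 10.8, 8.73 and 10.3 FPKM to 18.8, 26.0 and 20.0. The study counted kpnb1, IPO9, tpra, tprb, hnrnpaba, srsf10b and ddx3xb among its rescued genes.

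Proteasome subunits were higher in all 3 pairs in 27 of 41 members and lower in 0, with a median of 0.16. Without replicate 3 the fit called 3 of them higher, a share near the 5.97% of all genes. The regulatory subunit psmd1 had 10.2, 10.5 and 7.09 FPKM in GF and 13.7, 19.2 and 13.95 in ZM. Chromatin remodelers and histone methylation and acetylation enzymes had 43 of 98 members higher and 10 lower in all pairs (22.7% and 19.5% of all genes). Their median was 0.13, with -0.03, 0.18 and 0.23 in pairs 1 to 3, and fell to 0.02 in 1 alternative. Without replicate 3 the fit called 10 of them higher and 9 lower (5.97% and 8.76% of all genes). The SWI/SNF subunit smarcc1a, which the study counted among its rescued genes, had 2.76, 2.66 and 2.04 FPKM in GF and 5.74, 9.52 and 4.09 in ZM. The histone H4 methyltransferase kmt5ab had 19.9, 21.1 and 18.5 against 32.9, 30.0 and 29.2. Cytosolic ribosomal proteins behaved differently from these lists. Their medians were 0.37 and 0.19 in pairs 1 and 2 and -0.20 in pair 3, and 75 of the 81 tested members were lower in ZM 3 than in GF 3. Their summed FPKM was 161239, 178331 and 185485 in GF and 208805, 201133 and 162310 in ZM, so these genes held 24.0% to 29.9% of each sample's FPKM. Since FPKM is a share of the total, such a shift bears on the level of all other genes in a sample, and its part in the other results was tested only through the rescaling alternatives.

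Lens crystallins, the abundant structural proteins of the lens, were lower in ZM in all 3 pairs in 32 of 38 tested members, against 19.5% of all genes, and higher in 0. A further 19 crystallin genes were below the limit. The median log2 fold change was -0.72, with -0.94, -0.81 and -0.46 in pairs 1, 2 and 3. The groups did not overlap for 30 members (6.25% of all genes lay lower without overlap), none passed an adjusted p of 0.1, and 34 passed as lower without replicate 3 (8.76% of all genes). Summed over the list, the level was 26222, 23110 and 24777 FPKM in GF and 14160, 13791 and 17216 in ZM. All 3 ZM samples were thus well below the GF samples. Of the gamma-M crystallins, which fill the lens fibres of fish, crygm2d9 (ENSDARG00000115701) had 713, 588 and 661 FPKM in GF and 322, 311 and 356 in ZM. Its log2 fold change was -0.98 (standard error 0.10, limma adjusted p = 0.184). The copies crygm2d1 to crygm2d21 are similar in sequence and can share reads, so their values are not independent of each other. Crystallins of other families had the same direction. CRYAA, the lens alpha crystallin and a small heat shock protein, had 65.0, 54.6 and 54.0 FPKM in GF and 33.2, 24.7 and 36.8 in ZM, and CRYBA4, a beta crystallin, had 1114, 1181 and 1372 against 706, 698 and 849. In pair 3 the direction was reversed for 4 members. The beta crystallin cryba1b, with 147, 179.5 and 178 FPKM in GF and 171, 97.5 and 277 in ZM, was higher in pairs 1 and 3, and the beta crystallins crybb1l1 and CRYBB1 and the gamma-M crystallin crygmxl1 were lower in pairs 1 and 2 and higher in pair 3. Photoreceptor and retina genes, the other eye list, had a median of -0.30, with -0.50 and -0.18 in pairs 1 and 2 and 0.02 in pair 3. Of 28 members, 8 were lower in all pairs (28.6%, against 19.5% of all genes). PDE6G, a phosphodiesterase subunit of the light response, had 62.8, 49.3 and 38.3 FPKM in GF and 36.4, 33.3 and 31.8 in ZM.

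Genes of the presynaptic release machinery were lower in ZM in pairs 1 and 2 and near equal in pair 3. The 33 tested members had a median of -0.42, made up of -0.82, -0.43 and 0.05 in pairs 1, 2 and 3. None was higher and 14 were lower in all 3 pairs (22.7% and 19.5% of all genes), but in pair 3 alone 19 were higher and 14 lower. Without replicate 3, 24 passed the test, all lower (8.76% of all genes). The calcium sensor syt5b had 41.1, 18.8 and 24.0 FPKM in GF and 6.88, 6.18 and 21.7 in ZM, so that ZM 3 lay above the lowest GF sample. SNAP25, a membrane fusion protein, is listed at 2 loci, with 27.6, 14.3 and 16.4 against 7.88, 7.69 and 17.6 FPKM at ENSDARG00000058117. At ENSDARG00000020609 its values were 71.5, 54.2 and 64.6 against 41.2, 39.3 and 53.1. The first overlapped between the groups and the second did not. GAD1, which makes the transmitter GABA, had 33.4, 22.7 and 28.5 FPKM in GF and 18.4, 16.3 and 20.0 in ZM, and was the member with the largest t. Early postmitotic neuron genes showed the same split by pair, with medians of -0.57, -0.31 and 0.06. Of 30 members, 9 were lower and 2 higher in all pairs (19.5% and 22.7% of all genes). The neuronal RNA-binding gene elavl3 had 41.9, 38.3 and 29.7 FPKM in GF and 42.3, 42.5 and 40.04 in ZM, and so was not among the lower ones. STMN2 (stathmin, at ENSDARG00000033234), a microtubule regulator of growing axons, had 151, 124 and 138 against 85.0, 82.0 and 119. The other STMN2 entry, ENSDARG00000070537, was lower in ZM in pair 1 and higher in pairs 2 and 3. Its log2 fold change was 0.20, and the groups overlapped. Cranial motor and autonomic neuron factors had medians of -0.51, -0.31 and 0.12. ISL2, a LIM homeodomain factor of motor neurons, had 23.6, 17.7 and 26.0 FPKM in GF and 11.103, 10.96 and 21.1 in ZM.

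Proneural and neuronal bHLH factors went both ways. OLIG3, ATOH1 and atoh7, which specify progenitors of the dorsal hindbrain and the retina, were higher in all 3 pairs, while 7 of the 21 members were lower in all pairs, 4 of them from the NEUROD and BHLHE families, which act in differentiating neurons. The remaining ones were TAL1, atoh8 and atoh1c, a further copy of ATOH1 that had 1.63, 1.32 and 1.98 FPKM in GF and 0.146, 0.107 and 1.55 in ZM, and passed the limit only through GF. ATOH1 (ENSDARG00000055294), which specifies rhombic lip progenitors, had 3.82, 3.51 and 2.16 FPKM in GF and 9.48, 11.07 and 2.61 in ZM. OLIG3 had 5.16, 3.71 and 2.30 against 9.87, 7.25 and 3.38. BHLHE23 had 56.1, 30.0 and 46.2 FPKM in GF and 7.73, 8.02 and 38.0 in ZM, the largest log2 fold change of the list at -1.59 (standard error 0.41). NEUROD2 had 4.61, 2.65 and 5.50 against 0.706, 0.779 and 4.89. NEUROD1, with 131, 90.8 and 97.0 FPKM in GF, had 51.3, 48.2 and 109 in ZM. In each of these the ZM 3 value was close to the GF samples while ZM 1 and ZM 2 were not. Without replicate 3 the fit called 5 members higher and 9 lower (5.97% and 8.76% of all genes). The early proneural genes ascl1a and neurog1 had log2 fold changes of -0.12 and -0.14. Neural progenitor and radial glia genes had a median of 0.12, with 0.15, 0.17 and 0.01 in pairs 1 to 3. Of 32 tested members, 5 were higher and 3 lower in all 3 pairs. Both shares were below those of all genes (22.7% and 19.5%), and in pair 3 alone 16 were higher and 16 lower. The member with the largest positive t was nes (nestin), an intermediate filament of progenitors. It had 5.13, 5.21 and 3.37 FPKM in GF and 9.38, 6.92 and 5.12 in ZM. Notch receptors, ligands and Her targets had medians of 0.19, 0.36 and 0.03, with 18 members called higher and 2 lower of 49 without replicate 3 (5.97% and 8.76% of all genes). The Her family repressor her8a had 1.31, 1.32 and 1.04 FPKM in GF and 2.76, 3.28 and 1.82 in ZM, without overlap.

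**Figure D4:**
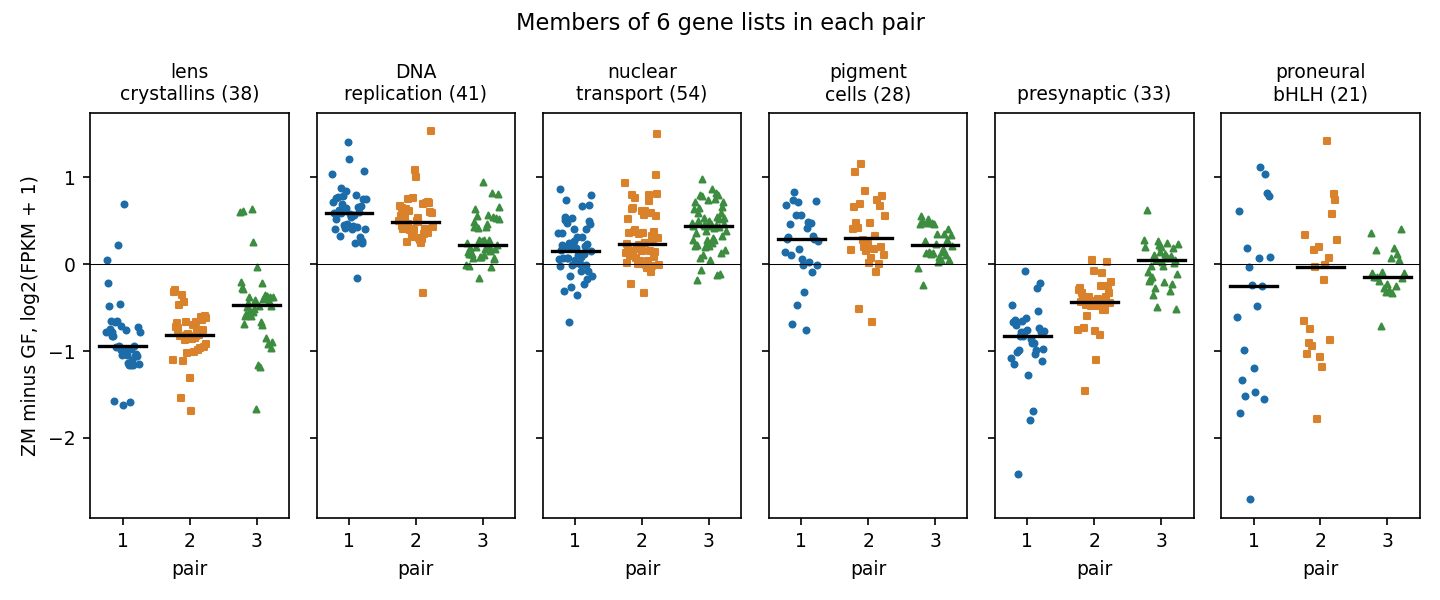
Differences within each pair (ZM minus GF, log2(FPKM + 1)) for every tested member of 6 gene lists, with a bar at the median. Lens crystallins lie mostly below 0 and DNA replication, nuclear transport and pigment cell genes mostly above 0 in all 3 pairs, while presynaptic genes lie below 0 in pairs 1 and 2 and around 0 (median 0.05) in pair 3.

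Wnt, BMP and TGF-beta, FGF and axon guidance genes had medians between -0.08 and 0.06, against 0.0019 over all genes. At an unadjusted p under 0.05, 12 of the 74 Wnt genes were higher (9.65% of all genes) and 4 lower (7.56%), with a median of 0.03. The beta-catenins ctnnb1 and ctnnb2, which carry the Wnt signal into the nucleus and link cadherins to the cytoskeleton, had 33.2, 36.4 and 31.4 against 48.0, 75.3 and 46.8 FPKM and 18.7, 18.3 and 16.1 against 28.2, 38.5 and 24.4 FPKM, and may share reads. The study counted ctnnb2 among its rescued genes. The ligand WNT1, made at the midbrain-hindbrain boundary, had 2.04, 1.53 and 1.41 FPKM in GF and 4.08, 2.96 and 2.1006 in ZM. The feedback target AXIN2, with 13.9, 11.5 and 10.0 against 12.98, 12.75 and 14.1, had no such difference. PORCN, the acyltransferase that readies Wnt ligands for secretion, had 10.6, 6.41 and 7.89 against 5.41, 4.53 and 6.09 at ENSDARG00000052558. The other PORCN entry, ENSDARG00000052455, had 9.73, 7.86 and 8.93 against 9.64, 9.25 and 8.41, a log2 fold change of 0.04. Hedgehog genes stood further from 0, with a median of 0.18 over 17 members and 9 of them higher and 3 lower in all pairs (22.7% and 19.5% of all genes). Of these, the co-receptor CDON had 4.83, 5.45 and 4.73 against 7.02, 11.6 and 7.34 FPKM and the ligand SHH 16.2, 12.8 and 13.96 against 11.3, 11.06 and 11.7. That median was -0.01 for the members with a mean of at least 5 FPKM. The medians of Wnt genes, BMP and TGF-beta genes (63 tested, 0.03), FGF genes (44 tested, -0.08) and axon guidance genes (69 tested, 0.06) changed sign in at least 1 alternative. Of single genes, the FGF target etv5a had 1.54, 1.55 and 0.937 against 2.50, 2.58 and 2.40 FPKM, the BMP target ID2 had 196, 166 and 179 against 121, 125 and 159, and the ephrin receptor epha2a had 4.54, 4.52 and 3.01 against 7.97, 9.23 and 4.28.

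Neural crest and pigment cell genes were higher in all 3 pairs in 18 of 28 members and lower in 0 (22.7% and 19.5% of all genes). They had a median of 0.28 and pair medians of 0.29, 0.30 and 0.23. The melanin synthesis enzyme TYRP1 at ENSDARG00000029204 had 13.01, 13.3 and 13.8 FPKM in GF and 23.9, 30.7 and 20.3 in ZM. TYR (tyrosinase), which starts that pathway, had 4.202, 3.68 and 2.72 against 7.57, 7.42 and 4.16, and MITF, the master regulator of melanocytes, 2.41, 3.34 and 2.13 against 4.46, 4.74 and 3.33. The neural crest factor sox10 had 1.39, 1.58 and 1.32 against 2.32, 3.30 and 1.97. TYRP1 at ENSDARG00000029204 and sox10 did not overlap between the groups, and TYR and MITF did. The more abundant TYRP1 entry, ENSDARG00000056151, had 205, 150 and 174 FPKM in GF and 203, 209 and 221 in ZM. It overlapped between the groups and had a log2 fold change of 0.27. The early crest factors FOXD3 and TFAP2A had the other direction, with log2 fold changes of -0.36 and -0.45. Iridophore and xanthophore genes differed among themselves. While pnp4a and aox5 had -0.07 and 0.04, gch2 had 129, 168 and 162 FPKM in GF and 158, 192 and 214 in ZM. It was higher in each pair, with overlap between the groups and a log2 fold change of 0.30. The list members PTS and PAICS, at 0.42 and 0.33, were also higher in each pair with overlap. Of the other tissues, erythroid genes had a median of 0.17 over 15 members, and the embryonic globin hbbe3 had 104, 211 and 236 FPKM in GF and 266, 418 and 332 in ZM. Epidermal genes (36 tested) had a median of -0.11 and pair medians of -0.05, -0.10 and -0.17. Of these, 17 were lower and 6 higher in all 3 pairs (19.5% and 22.7% of all genes). Muscle genes (62 tested) had a median of 0.02 and pair medians of 0.20, -0.30 and 0.01. Cartilage genes (25 tested) had a median of 0.05 and endothelial genes (19 tested) 0.07. The muscle and cartilage medians changed sign when a pair was left out. Liver and yolk genes (32 tested) had pair medians of -0.09, 0.67 and -0.28 and followed no common direction.

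Most metabolic and defence lists showed small differences. Subunits of the respiratory chain encoded in the mitochondrion had a median of -0.20, against 0.04 for the 92 encoded in the nucleus. Of the 13 mitochondrial ones, 8 were lower in all pairs (19.5% of all genes). Glycolysis and hypoxia response genes had a median of -0.17, with 19 of 54 lower and 6 higher in all pairs (19.5% and 22.7% of all genes). ALDOC, the aldolase of brain, had 109, 107 and 107 FPKM in GF and 75.3, 71.2 and 82.4 in ZM, without overlap, while the hypoxia factor hif1ab had 3.83, 4.202 and 4.61 against 5.78, 8.95 and 6.23. Innate immune genes had 24 tested members with a median of -0.05 and none called. In all 3 pairs 7 were lower and 1 higher (19.5% and 22.7% of all genes), and 5 lay lower without overlap (6.25%). Among them nfkbiab, the NF-kappa-B inhibitor, had 65.3, 64.8 and 51.6 FPKM in GF and 39.9, 46.5 and 38.8 in ZM. A further 40 immune genes were below the limit. Microglia and macrophage genes (16 tested, 17 below the limit) had a median of 0.25, with 0.08, 0.28 and 0.09 in pairs 1 to 3. Of these, 6 were higher and 2 lower in all pairs (22.7% and 19.5% of all genes), and the median ranged from 0.03 to 0.34 over other settings. MFAP4 had 17.7, 11.9 and 20.9 FPKM in GF and 26.7, 19.5 and 25.9 in ZM, with overlap. Oxidative stress and metal genes (42 tested) had a median of 0.05 and stress response genes (55 tested) 0.01, with the heat shock gene hsp70.3 at 2.35, 1.95 and 1.54 against 6.72, 4.01 and 2.73 FPKM. Catalase (CAT), which breaks down hydrogen peroxide, had 16.8, 8.10 and 20.1 against 8.25, 7.43 and 11.3. Circadian and glucocorticoid response genes had pair medians of -0.39, -0.15 and 0.12 and sterol and lipid genes a median of 0.10. The medians of the nuclear respiratory, oxidative stress and stress response lists changed sign when a pair was left out.

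**Figure D5:**
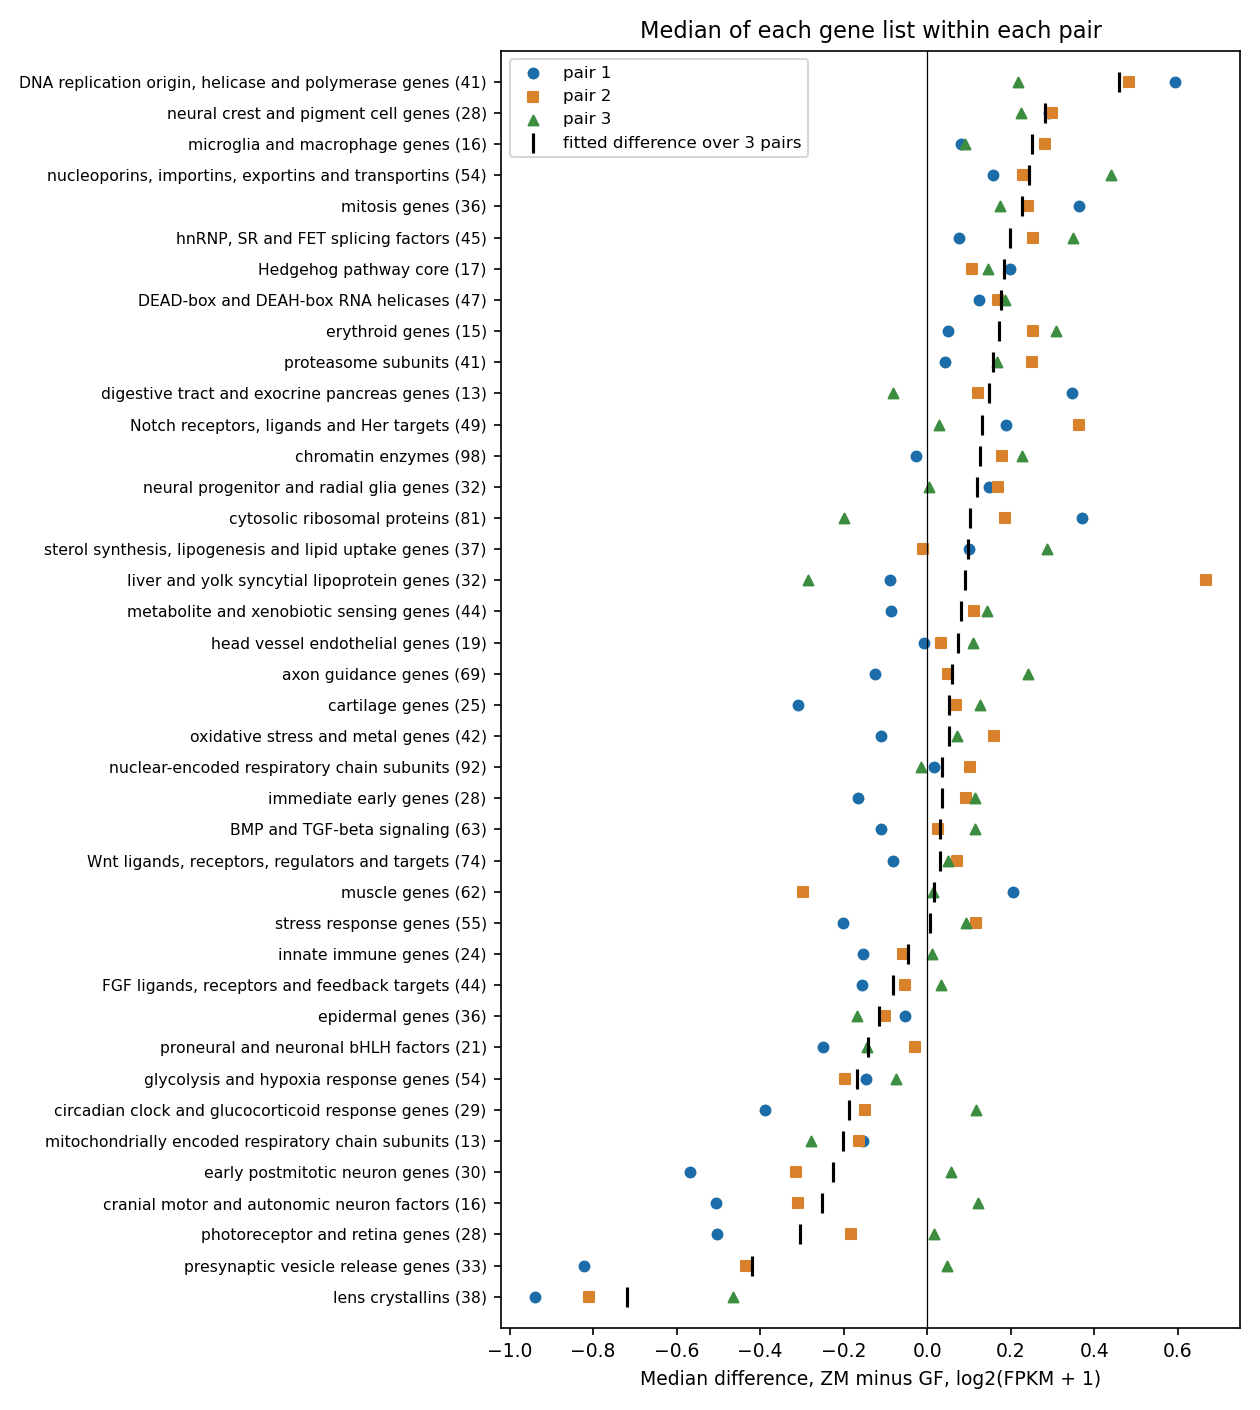
Median difference (ZM minus GF, log2(FPKM + 1)) of 40 gene lists within pair 1, pair 2 and pair 3, and the median of the differences fitted over the 3 pairs, with the number of members tested in brackets. Lists are ordered by the fitted median, with lens crystallins (-0.94, -0.81 and -0.46 in pairs 1, 2 and 3) at one end and DNA replication genes (0.59, 0.48 and 0.22) at the other, although liver and yolk genes are higher in pair 2 (0.67) and nuclear transport genes in pair 3 (0.44), and presynaptic genes (-0.82, -0.43 and 0.05) have pair 3 far from pairs 1 and 2.

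Genes that the study measured by in situ hybridization or RT-qPCR can be given beside these. None of those tested passed over the 3 pairs, and 2 were below the limit and not tested. The RT-qPCR gene sp5a had 0.874, 0.868 and 1.07 FPKM in GF and 0.804, 1.27 and 1.06 in ZM. The gene egr2b, probed in situ as krox20, had at most 0.0946 FPKM. A table of the study annotates part of the genes it called rescued. It leaves out the rescued genes without annotation terms and the crystallins with the other direction. The genes were chosen on these samples, so that their direction in these samples is no independent evidence. Of its 31 genes 30 were tested, and all 30 were higher in ZM in every pair, with a median of 0.78. Among the genes it probed in situ, notch1b had 0.978, 0.682 and 0.444 FPKM in GF and 1.63, 2.48 and 0.276 in ZM, so that pair 3 went against pairs 1 and 2, and passed the limit only through ZM. ISL1, a LIM homeodomain factor of motor and sensory neurons, had 81.3, 64.0 and 71.3 against 42.9, 39.1 and 68.6. The FGF8 locus at ENSDARG00000003399 had a log2 fold change of 0.03. GFAP, which the study imaged through a GFP transgene and not by in situ hybridization or RT-qPCR, had -0.09. Of the RT-qPCR genes, hnrnpr had 9.22, 6.53 and 6.87 FPKM in GF and 11.5, 14.6 and 13.5 in ZM. For taf15 the values were 46.7, 31.4 and 38.5 against 56.3, 61.7 and 47.5. Both were higher in each pair and without overlap. For hnrnpr, ctnnb2, mcm4 and taf15 the study ran RT-qPCR on mRNA from independent sources, and reports that the results back its RNA-seq.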

How the data were processed

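The authors checked reads with FastQC 0.11.8, mapped them with HISAT2 2.1.0 to GRCz11 and deposited FPKM from StringTie 1.3.4d, as the submitters' notes and the study's methods give it. Their own tests used DESeq2 1.29.13 on HTSeq 0.11.0 counts not used here. The study's methods give a range of reads sequenced per sample, but not the number for each sample. The number of reads behind an FPKM is unknown: at most 5 of 1056 low genes shared 1 ratio between GF 1 and GF 2. FPKM summed to 666444 to 705494 per sample.

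Values were tested as log2(FPKM + 1), a pseudocount of 1, without rescaling, for genes with a mean of at least 1 FPKM, with limma 3.58.1 in R 4.3.3 (lmFit, eBayes with trend, replicate block, two-sided, Benjamini-Hochberg over 15451 genes). Tables and plots were made in Python 3.11.15. The block rests on a check of the numbers: deviations of GF and ZM samples from their group means correlated at 0.409, 0.474 and 0.621 for the same number, and at -0.51 to 0.29 for different ones. The smallest p of an exact permutation test with 3 against 3 samples is 0.1 if the pairs are ignored. It is larger if labels are swapped only within pairs, so no such test was used. The fit was tested on simulated data, with normal noise at a spread for each gene that was already evened out across genes. The changed genes were drawn only from those with a mean log2(FPKM + 1) above 2. In that setting the fit called 99 of 100 genes changed by 1 on the log2 scale and 100 of 100 changed by 2. These shares do not give its power in the real data, where mcm4 at 1.05 was not called (limma adjusted p = 0.184). At the same adjusted p under 0.1 the fit also called 46 of 15251 unchanged genes in the simulation. These false calls were a larger share of its calls than the threshold of 0.1.

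The genes, lists and rules were chosen with earlier results of these data known, including the 40 lists, and lists were given no test. Named genes were up to 12 in each direction with the largest fold change among called genes or, beyond those, the largest t with 1 direction in all pairs; up to 3 called members of each list or else the largest t in each direction; and genes the study measured. Others were picked after their values were seen, and some genes the rule names are not reported here. Symbols come from a name table, in which capitals mark human-style symbols that zebrafish copies share (29207 IDs matched). Alternatives were another pseudocount, filters, rescalings, eBayes settings, no block and leaving out each pair.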

Additional observations from a re-analysis of the deposited data

How the results depend on the processing

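limma called 2 genes higher at an adjusted p under 0.1, which became 0 without the replicate block and with no filter on low values and 1 after quantile normalization. It was 2 in the other alternatives. The number of lower genes stayed 0 in these settings. At an unadjusted p under 0.05, removing the block, and so the pairing, gave 941 higher and 660 lower genes in place of 1491 and 1168, and a limit of 5 FPKM gave 881 and 668 of 8587 genes. Leaving out a pair gave 0 to 923 higher and 0 to 1353 lower genes at an adjusted p under 0.1, and 403 to 1681 higher and 418 to 2352 lower genes at an unadjusted p under 0.05, with the high ends of the adjusted counts without replicate 3. The cause was not tested. A fit to 2 pairs has 1 residual degree of freedom and leans on the spread shared over genes. Small differences changed sign when a pair was left out: FGF8 at ENSDARG00000003399 ranged from -0.014 to 0.11, psmc1b from -0.054 to 0.023, GFAP from -0.17 to 0.014 and nsfb from -0.013 to 0.14. The medians of lens crystallins stayed between -0.84 and -0.64, of DNA replication genes between 0.38 and 0.58 and of presynaptic genes between -0.62 and -0.24. The planned correction for protein length was not run, since no lengths were used here. The depth behind each FPKM is unknown, so no counting error could be given.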

Other observations

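The actinodin genes, which encode structural proteins of the fin fold in zebrafish, were lower in ZM in all 3 pairs. The level of and2 was 17.1, 20.3 and 27.7 FPKM in GF and 5.50, 7.76 and 15.8 in ZM, and the groups did not overlap. Those of and3 were 5.79, 8.14 and 13.4 against 2.03, 4.35 and 7.07, and those of and1 6.91, 8.46 and 17.2 against 3.31, 6.60 and 10.6, both with overlap. None was called with 3 pairs, and and2 and and3 passed without replicate 3 (limma adjusted p 0.0103 and 0.0264). They were looked up after and2 was seen. Whether the amount of fin tissue in the head samples differed was not tested.

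The liver fatty acid binding protein gene fabp10a had 2.54, 1.77 and 2.90 FPKM in GF and 0.141, 0.530 and 1.15 in ZM, so that it passed the limit only through GF, while the other genes of the liver and yolk list had no common direction. The mitochondrial gene MT-ATP6 was at 296, 289.8 and 333 FPKM in GF, 288 and 301 in ZM 1 and 2, and 5008 in ZM 3, and MT-CO3, its neighbour in the mitochondrial genome, at 6395, 6264 and 7071 in GF and 5494, 5050 and 4444 in ZM.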
